A study of Saccharomyces cerevisiae with 4 samples.

Results

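The kinetochore, the spindle checkpoint and the anaphase-promoting complex or cyclosome (APC/C), with its activator Cdh1, securin and separase, were examined as 42 genes listed by standard name, of 6459 genes in the deposited tables. All 42 names were found by systematic name in build R64 of the yeast genome, and all 42 passed the filter on low counts. Budding yeast (Saccharomyces cerevisiae, BY4741 background) of the strain ESS1-AID was sequenced after 3 h in 2 mM indole-3-acetic acid (IAA, an auxin) and after 3 h in DMSO, with 2 libraries of each that the submitters call biological replicates. In both groups the prolyl isomerase Ess1 carried an auxin-inducible degron (ESS1AID 71-114-6Flag::hphB), and the plant receptor that the degron needs was present as HIS3::ADH1-OsTIR19Myc. Cultures were in mid-log phase in YPD at 30°C when the treatment began, and the labels call the IAA samples Ess1-depleted. Every sample carried the degron, so loss of Ess1 and other effects of IAA cannot be told apart. The degron acts on the protein, so ESS1 mRNA, at 6.70 and 7.92 CPM (counts scaled by library total) in IAA and 5.15 and 5.31 CPM in DMSO, does not check the depletion.

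The kinetochore is built on a centromeric nucleosome that holds the histone H3 variant Cse4 and links it, through layers of protein complexes, to a spindle microtubule. Chromosomes that lack a proper attachment keep the spindle checkpoint on, and the checkpoint holds back the APC/C, a ubiquitin ligase. Once the checkpoint is satisfied, the APC/C with its activator Cdc20 marks securin for breakdown, separase is freed, and separase cuts cohesin so that sister chromatids part. Cdh1 takes over as activator in late mitosis and G1. Many of these genes are transcribed at a particular time of the cell cycle.

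More of the 42 genes fell than rose in IAA. At an adjusted p under 0.05 (edgeR quasi-likelihood test, Benjamini-Hochberg over all tested genes), 20 members (47.6%) were lower and 8 (19.0%) higher, against 29.6% lower and 28.7% higher among all 5799 tested genes, and 14 did not pass. Both directions together came to 28 of 42 members, against 58.3% of tested genes. The median log2 fold change of the members, IAA over DMSO, was -0.11, against -0.0036 for all tested genes. Changes were modest: 18 members passed with a fold of at least 1.2, of which 16 were lower (38.1%, against 17.6% of tested genes) and 2 higher (4.76%, against 19.9%). Only 3 members, CDC26, PDS1 and DAD2, passed with a fold of at least 1.5. In all 28 members that passed, both IAA libraries lay on the same side of both DMSO libraries, as in every called gene of the table.

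Whether the smaller rises passed depended on how libraries were scaled. Scaling by library size alone moved the median of all tested genes to -0.11 on the log2 scale, and then 26 members were lower and 1 higher, since 7 of the 8 risers (all but APC2) lost their call while staying above 0. Upper-quartile scaling moved it to 0.072, with 15 members lower and 9 higher. The number of members higher was 5 without either IAA library, 3 without either DMSO library and 3 with DESeq2, and the number lower was 16 with DESeq2. Of the 14 alternatives with a test, every one that kept the gene called 13 of the 20 lower members and 1 of the 8 higher ones, APC2.

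**Figure D1:**
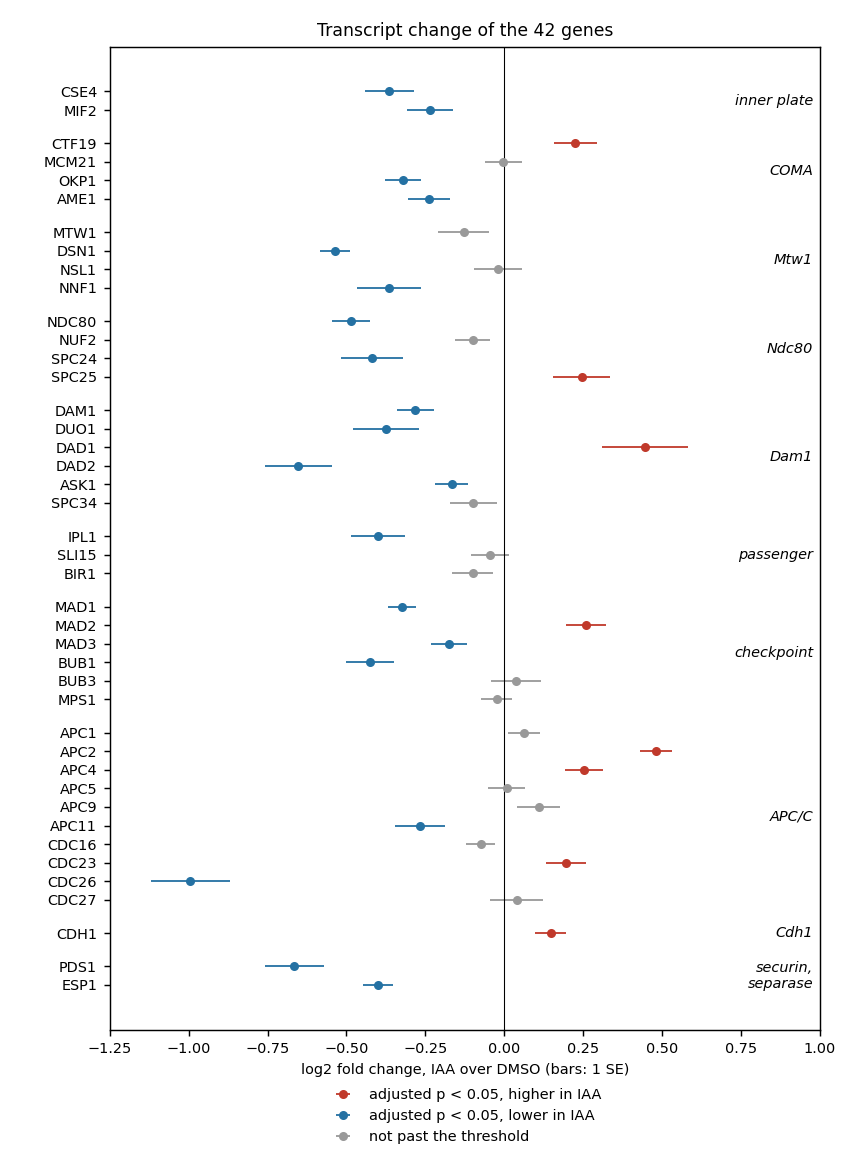
Log2 fold change, IAA over DMSO, of each of the 42 genes, with bars of 1 standard error, grouped by complex. Red points passed the threshold as higher, blue points as lower and grey points did not pass, and lower members outnumber higher ones 20 to 8.

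Letters that match cell-cycle promoter elements are shown first, since members with such elements moved in both directions. In the 300 bases before the coding start of each gene, 4 motifs were searched on both strands in RefSeq sequence of R64: ACGCGT (the MCB element, bound by MBF), CACGAAA (the SCB element, bound by SBF), GTAAACA (bound by forkhead factors, which act on G2/M genes) and GGCGGC (part of the URS1 element). These motifs were chosen after the values of the members had been seen. GTAAACA was found before 10 members (23.8%), against 6.98% of 6013 promoters, and ACGCGT before 6 members (14.3%), against 3.48%. CACGAAA was found before 2 members, BUB3 and CDC27 (4.76%, against 4.49% of promoters). GGCGGC was found before 0 members, against 5.19% of promoters. The windows with GTAAACA, or TGTTTAC on the other strand, are given 5′ to 3′ on the strand of the gene with 12 bases on each side and the match in capitals.
OKP1, chrVII:854987-855017, minus strand: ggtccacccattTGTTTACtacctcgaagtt
MTW1, chrI:79604-79634, plus strand: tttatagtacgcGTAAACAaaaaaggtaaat
NNF1, chrX:636955-636985, plus strand: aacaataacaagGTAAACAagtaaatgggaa
SPC24, chrXIII:501974-502004, minus strand: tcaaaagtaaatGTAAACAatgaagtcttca
IPL1, chrXVI:157715-157745, minus strand: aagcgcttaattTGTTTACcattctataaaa
MAD2, chrX:387523-387553, plus strand: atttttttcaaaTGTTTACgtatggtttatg
MAD3, chrX:411070-411100, minus strand: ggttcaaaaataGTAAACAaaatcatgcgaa
MPS1, chrIV:403514-403544, minus strand: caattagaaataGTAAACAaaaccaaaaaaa
APC11, chrIV:433265-433295, plus strand: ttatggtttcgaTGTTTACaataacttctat
ESP1, chrVII:687735-687758, minus strand: aagagGTAAACAaacaaaaacaag

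Of these 10 members, 7 fell and 1 rose (MAD2), while MTW1 and MPS1 did not pass. Over all 42 members 47.6% were lower and 19.0% higher, and over all tested genes 29.6% and 28.7%. Calls were not counted over all genes with the motif. Among all tested coding genes, the 409 with this motif had a median log2 fold change of -0.043 and the 5314 without it -0.0037. The ESP1 match lies 295 bases before the coding start, at the edge of the window, so its left flank is cut short. The windows of 5 members with ACGCGT are given in the same way.
MIF2, chrXI:273287-273316, plus strand: aaaaataatataACGCGTtagaaatggtga
CTF19, chrXVI:517554-517583, plus strand: gaaaaatcagaaACGCGTaatttagactta
MTW1, chrI:79600-79629, plus strand: aatttttatagtACGCGTaaacaaaaaagg
IPL1, chrXVI:157744-157773, minus strand: aagtttaacttcACGCGTttttcctgtaaa
APC4, chrIV:685847-685876, plus strand: gttctgttgaacACGCGTaaacgactcaag

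Of the 6 members with ACGCGT, MIF2, IPL1 and PDS1 fell, CTF19 and APC4 rose and MTW1 did not pass. Over all tested genes 29.6% were lower and 28.7% higher. The 204 tested genes with ACGCGT had a median log2 fold change of -0.12 and the 5519 without it -0.0027. In MTW1 the matches to ACGCGT and GTAAACA overlap by 2 bases. The full 300-base window is given for IPL1, which holds both motifs in separate places, with both in capitals.
IPL1, chrXVI:157594-157893, minus strand: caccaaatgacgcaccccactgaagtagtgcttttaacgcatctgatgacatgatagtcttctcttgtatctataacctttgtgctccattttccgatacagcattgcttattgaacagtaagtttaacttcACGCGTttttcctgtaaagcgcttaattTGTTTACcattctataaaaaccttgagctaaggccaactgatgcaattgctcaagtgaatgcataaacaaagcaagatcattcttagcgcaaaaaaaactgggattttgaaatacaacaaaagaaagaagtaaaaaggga

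A match is a run of letters, and binding was not measured.

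In the inner kinetochore, the genes of the centromeric nucleosome and its reader both fell. CSE4 had 29.2 and 25.1 CPM in IAA, against 34.9 and 35.1 CPM in DMSO, where CPM are scaled by the trimmed mean of M values (TMM). Both IAA libraries were below both DMSO libraries, the log2 fold change was -0.36 (SE 0.0783, adjusted p = 0.00430), and without IAA replicate 2 it was -0.25. MIF2, the yeast CENP-C that binds this nucleosome, fell less, with a log2 fold change of -0.24 (SE 0.0732, adjusted p = 0.0230), and did not pass without IAA replicate 2 or without either DMSO library (adjusted p = 0.120, 0.0633 without DMSO replicate 1 and 0.0520 without DMSO replicate 2). The canonical H3 gene HHT1 rose 1.94-fold and HHT2 1.51-fold, though their estimated counts have decimals, a sign of reads shared between copies.

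The COMA complex bridges the inner and outer kinetochore, and of its 4 genes 2 fell, 1 rose and 1 did not pass. OKP1, of the essential dimer, had 33.7 and 34.0 CPM in IAA and 43.1 and 41.5 CPM in DMSO. The groups did not overlap and the fall was 1.25-fold (log2 fold change -0.32, SE 0.0576, adjusted p = 0.00178). Its partner AME1 fell by 0.24 on the log2 scale (SE 0.0672, adjusted p = 0.0152), and did not pass without IAA replicate 2 (adjusted p = 0.0615), without DMSO replicate 1 (adjusted p = 0.0968) or with upper-quartile scaling (adjusted p = 0.0841). CTF19, of the nonessential dimer, rose instead, with a log2 fold change of 0.23 (SE 0.0669, adjusted p = 0.0187), but its call was lost without IAA replicate 1 (adjusted p = 0.0839) and without either DMSO library. CTF19 overlaps IRC15 on the opposite strand by 27 bases, and IRC15 also rose (log2 fold change 0.53), so reads of the pair may be mixed if strand was not used in counting. MCM21, the partner of CTF19 and the one member with an intron, had 25.9 and 25.5 CPM in IAA and 25.9 and 25.6 CPM in DMSO, and did not pass (log2 fold change -0.0025, SE 0.0594).

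The Mtw1 complex, the platform on which the outer kinetochore is built, held the fall with the lowest adjusted p among the members. DSN1, whose product is regulated by the kinase Ipl1, had 55.9 and 56.4 CPM in IAA and 79.8 and 83.1 CPM in DMSO. That is a 1.45-fold fall (log2 fold change -0.54, SE 0.0485, adjusted p = 6.82e-05), with libraries of each group close together. NNF1 had 15.3 and 12.4 CPM in IAA and 18.0 and 17.6 CPM in DMSO. Its IAA libraries differed more from each other than its DMSO libraries did, and its log2 fold change of -0.36 (SE 0.102, adjusted p = 0.0146) was -0.21 and not past the threshold without IAA replicate 2 (adjusted p = 0.0551). MTW1 (log2 fold change -0.13, SE 0.0804) and NSL1 (-0.019, SE 0.0763) did not pass.

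The Ndc80 complex grips the microtubule, with the Ndc80-Nuf2 dimer at the outer end and the Spc24-Spc25 dimer at the inner end. NDC80 had 68.0 and 60.9 CPM in IAA, against 88.7 and 91.7 CPM in DMSO. The groups stood well apart, with a 1.40-fold fall (log2 fold change -0.48, SE 0.0600, adjusted p = 2.79e-04). NDC80 is known for a second, longer transcript from an upstream promoter that is made in meiosis and lowers its protein, and counts per gene do not separate the transcripts. SPC24 had 11.8 and 10.4 CPM in IAA and 15.8 and 14.0 CPM in DMSO, a 1.34-fold fall (log2 fold change -0.42, SE 0.0992, adjusted p = 0.00685). SPC25, the dimer partner of SPC24, was higher in IAA with a log2 fold change of 0.25 (SE 0.0893, adjusted p = 0.0425), and lost its call when any 1 library was left out. NUF2 did not pass (log2 fold change -0.10, SE 0.0566).

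The Dam1 complex forms a ring that follows the microtubule end. DAM1, which gives the complex its name, had 52.7 and 49.5 CPM in IAA and 60.2 and 63.9 CPM in DMSO, a 1.22-fold fall (log2 fold change -0.28, SE 0.0589, adjusted p = 0.00373). DUO1 had 18.2 and 15.5 CPM in IAA and 23.8 and 20.0 CPM in DMSO. Its log2 fold change was -0.37 (SE 0.105, adjusted p = 0.0149), and the lower DMSO library lay close to the higher IAA library. Without DMSO replicate 1 it was -0.25 and not past the threshold (adjusted p = 0.0793). The small subunits DAD1 and DAD2 went in opposite directions. DAD2 (chromosome XI, 596421 to 596822) had 5.86 and 5.92 CPM in IAA and 9.70 and 8.84 CPM in DMSO, a 1.57-fold fall (log2 fold change -0.65, SE 0.105, adjusted p = 0.00103). DAD1 (chromosome IV, 478474 to 478758) had 6.67 and 5.83 CPM in IAA and 4.92 and 4.26 CPM in DMSO, a 1.36-fold rise (log2 fold change 0.45, SE 0.136, adjusted p = 0.0213). The rise of DAD1 was not past the threshold without IAA replicate 1 (adjusted p = 0.0799) or without DMSO replicate 2 (adjusted p = 0.136). ASK1 fell by 0.17 on the log2 scale (SE 0.0524, adjusted p = 0.0240), and kept its call without IAA replicate 1 but not without any other single library (adjusted p between 0.0555 and 0.140), with DESeq2 (0.0887) or with upper-quartile scaling (0.187). SPC34 did not pass (log2 fold change -0.10, SE 0.0743). With the remaining subunits DAD3, DAD4, HSK3 and SPC19 included, 7 of the 10 Dam1 complex genes fell and 1 rose. DAD3, a further small subunit, fell 1.93-fold, to 4.19 and 4.54 CPM in IAA, against 8.77 and 8.07 CPM in DMSO (log2 fold change -0.95, SE 0.117, adjusted p = 2.78e-04).

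**Figure D2:**
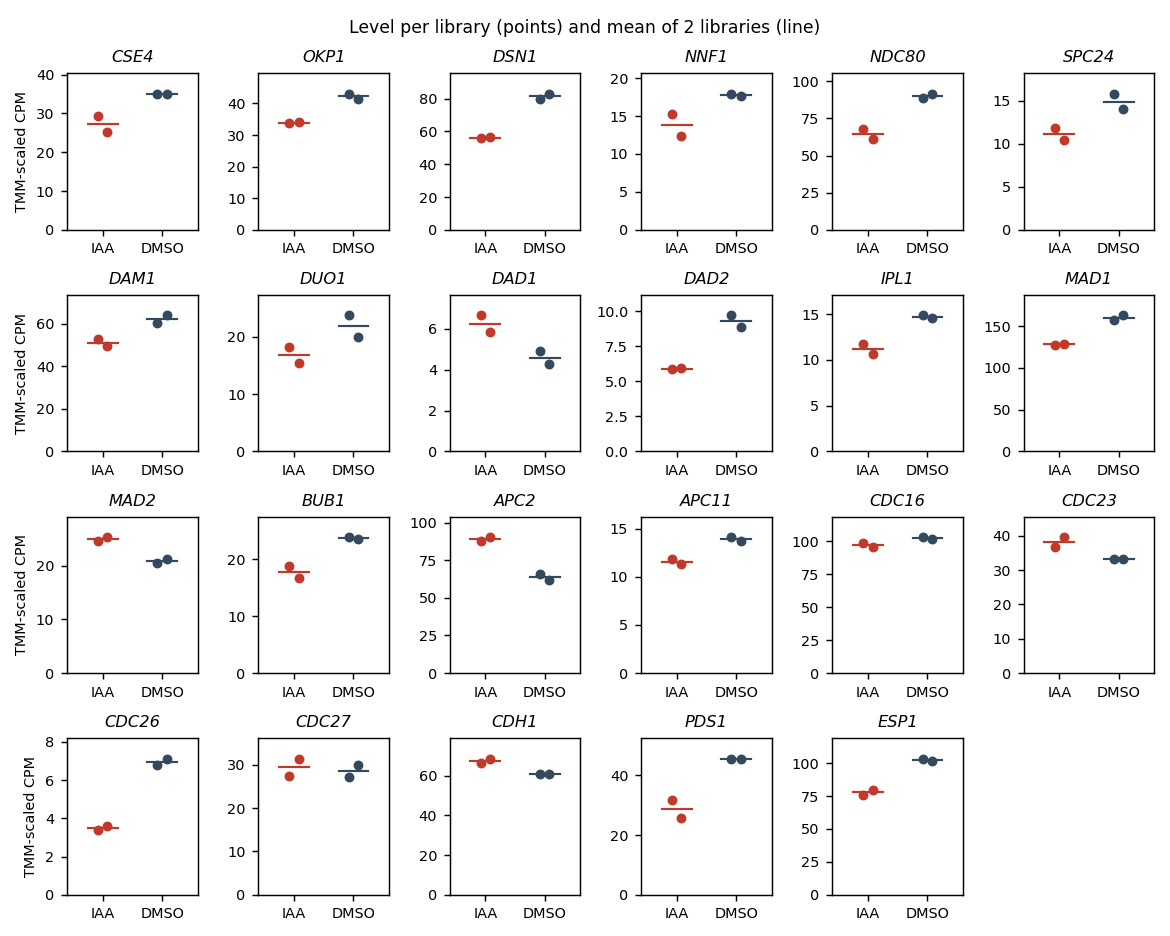
TMM-scaled CPM of 23 genes in each library (points) with the mean of the 2 libraries (line), IAA left of DMSO in each panel, axes from 0. The groups do not overlap in 22 of the panels, and in CDC27 they do. Most panels were chosen for passing the threshold, and no gene of the table that passed has overlapping groups, so this adds no support.

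The chromosomal passenger complex corrects faulty attachments through its kinase Ipl1, the yeast Aurora B. IPL1 had 11.7 and 10.6 CPM in IAA and 14.9 and 14.6 CPM in DMSO. The fall was 1.32-fold (log2 fold change -0.40, SE 0.0844, adjusted p = 0.00389), larger than the difference between replicates of either group. Its activator SLI15, the yeast INCENP, had 36.2 and 35.6 CPM in IAA and 35.9 and 38.1 CPM in DMSO, with overlapping groups (log2 fold change -0.045, SE 0.0600). BIR1, the survivin relative, had 73.6 and 84.0 CPM in IAA and 84.5 and 84.4 CPM in DMSO, and did not pass (log2 fold change -0.10, SE 0.0642).

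Checkpoint genes split. MAD1, which docks the checkpoint at the kinetochore, had 127 and 129 CPM in IAA and 158 and 163 CPM in DMSO, a 1.25-fold fall (log2 fold change -0.32, SE 0.0446, adjusted p = 4.71e-04). BUB1, a kinase and scaffold of the checkpoint, had 18.7 and 16.6 CPM in IAA and 23.9 and 23.6 CPM in DMSO, a 1.34-fold fall (log2 fold change -0.43, SE 0.0757, adjusted p = 0.00169). MAD3, a relative of BUB1 that is part of the mitotic checkpoint complex, fell less, by 0.18 on the log2 scale (SE 0.0564, adjusted p = 0.0265), and kept its call without IAA replicate 1 but not without any other single library. MAD2, the protein that Mad1 converts to its Cdc20-binding form, was higher, with 24.7 and 25.4 CPM in IAA and 20.5 and 21.3 CPM in DMSO. Its groups did not overlap (log2 fold change 0.26, SE 0.0631, adjusted p = 0.00781), though its call was lost without DMSO replicate 1 (adjusted p = 0.0583). BUB3 (log2 fold change 0.037, SE 0.0783) and the kinase gene MPS1 (-0.024, SE 0.0487) did not pass, and their groups overlapped.

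Among the 10 APC/C subunits, 3 rose (30%), 2 fell (20%) and 5 did not pass, against 28.7% higher and 29.6% lower among all tested genes. Of the 20 kinetochore members 12 fell (60%) and 3 rose (15%). The difference between these counts was not tested. The median log2 fold change of the APC/C subunits was 0.051, against -0.0036 for all tested genes. With library size scaling the medians were -0.053 for the subunits and -0.11 for all tested genes. The catalytic pair moved in opposite directions. APC2 (chromosome XII, 395758 to 398319), the cullin subunit, had 87.8 and 90.5 CPM in IAA and 65.9 and 61.8 CPM in DMSO. That 1.40-fold rise was the largest log2 rise among the members (0.48, SE 0.0509, adjusted p = 1.38e-04). APC11, the RING subunit that binds the ubiquitin-conjugating enzyme, had 11.8 and 11.3 CPM in IAA and 14.1 and 13.8 CPM in DMSO. Its fall was smaller (log2 fold change -0.27, SE 0.0794, adjusted p = 0.0187), and its call was lost without IAA replicate 2 (adjusted p = 0.0637) and without either DMSO library. In IAA, the deposited FPKM of APC2 was 0.865 and 0.916 times that of APC11 in the same library, against 0.559 and 0.534 times in DMSO.

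The subunits built of tetratricopeptide repeats, CDC16, CDC23 and CDC27, changed little. CDC16 had 99.0 and 95.7 CPM in IAA and 103 and 102 CPM in DMSO, and did not pass (log2 fold change -0.075, SE 0.0451). CDC27 had 27.4 and 31.5 CPM in IAA and 27.1 and 30.1 CPM in DMSO, with overlapping groups (log2 fold change 0.040, SE 0.0842). CDC23 had 36.6 and 39.6 CPM in IAA and 33.4 and 33.2 CPM in DMSO, and was higher by 0.20 (log2 fold change, SE 0.0633, adjusted p = 0.0265). That call held without IAA replicate 1 and was lost without each of the other libraries.

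CDC26 (chromosome VI, 226963 to 227337), a small subunit that in fission yeast and human binds the counterpart of Cdc16, had the largest change of the 42 genes. It had 3.38 and 3.59 CPM in IAA and 6.77 and 7.13 CPM in DMSO, which rested on 109 and 117 estimated counts in IAA and 183 and 204 in DMSO. The fall was 1.99-fold (log2 fold change -0.995, SE 0.125, adjusted p = 3.01e-04) and lay between -1.03 and -0.95 whichever library was left out. CDC26 fell to 0.510 and 0.579 times the FPKM of CDC16 in IAA, against 0.943 and 1.03 times in DMSO. Of the scaffold and remaining subunits, APC4 rose by 0.25 (log2 fold change, SE 0.0612, adjusted p = 0.00759), and APC1 (0.062, SE 0.0512), APC5 (0.0075, SE 0.0585) and APC9 (0.11, SE 0.0679) did not pass.

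CDH1, the APC/C activator of late mitosis and G1, had 66.2 and 68.5 CPM in IAA and 61.0 and 60.6 CPM in DMSO. This was a small difference (log2 fold change 0.15, SE 0.0491, adjusted p = 0.0297) that held without IAA replicate 1 and was lost without each of the other libraries. Securin and separase both fell. PDS1 (chromosome IV, 680496 to 681617), securin, had 31.9 and 25.6 CPM in IAA and 45.6 and 45.5 CPM in DMSO, a 1.59-fold fall (log2 fold change -0.66, SE 0.0947, adjusted p = 5.50e-04). Its IAA libraries differed from each other more than its DMSO libraries, and its log2 fold change was -0.83 without IAA replicate 1 and -0.51 without IAA replicate 2. ESP1, separase, had 76.0 and 79.6 CPM in IAA and 103 and 102 CPM in DMSO, a 1.32-fold fall (log2 fold change -0.40, SE 0.0470, adjusted p = 2.16e-04). Within a library, CDH1 stood at 1.26 and 1.62 times the FPKM of PDS1 in IAA, against 0.815 and 0.812 times in DMSO.

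Levels of different genes were compared in the deposited FPKM, which are scaled by gene length. BUB1 was the lowest of the 42 genes in both groups, with a mean of 6.00 FPKM in IAA and 8.64 FPKM in DMSO. The highest were DAD1 in IAA (82.3 FPKM) and ASK1 in DMSO (88.8 FPKM). For short genes FPKM is less secure, since reads and FPKM give DAD1 an effective length of 79 bases for its 285 coding bases, and CDC26 160 for 375. Within the Ndc80 complex the highest subunit, NDC80, exceeded the lowest, SPC25, 1.41-fold in IAA and 2.39-fold in DMSO. Within the APC/C, from CDC27 up to APC11, the span was 2.99-fold in IAA and 3.59-fold in DMSO. The checkpoint spanned 11.1-fold in IAA, with MAD2 on top, and 9.47-fold in DMSO, with MAD1 on top.

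**Figure D3:**
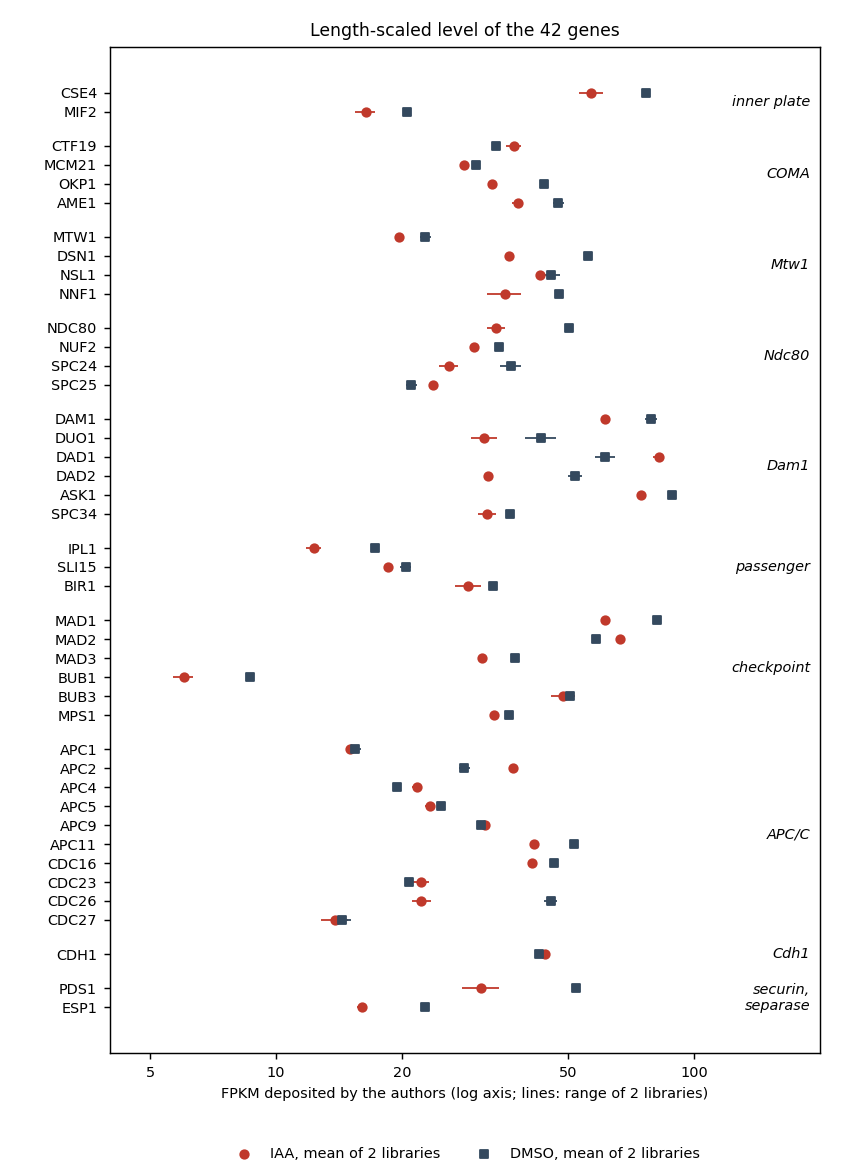
Mean FPKM of each of the 42 genes on a log axis, IAA as red circles and DMSO as dark squares, with lines for the range of 2 libraries. BUB1 is lowest in both groups, and MAD2 lies above MAD1 in IAA and below it in DMSO.

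Ratios of subunits within a library do not depend on how libraries are scaled, and the pairs given here were picked after their values were seen. SPC25 stood at 0.864 and 0.978 times the FPKM of SPC24 in IAA, against 0.530 and 0.634 times in DMSO. DAD1 stood at 2.702 and 2.42 times DAD2 in IAA, against 1.201 and 1.16 times in DMSO. CTF19 stood at 1.18 and 1.07 times OKP1 in IAA, against 0.757 and 0.782 times in DMSO. Each of these pairs sets a member called higher against one called lower, as do APC2 with APC11, CDH1 with PDS1 and MAD2 with MAD1. That the ratios of the IAA and DMSO libraries did not overlap therefore follows from the choice of pairs. MAD2 stood at 1.08 and 1.102 times MAD1 in IAA, against 0.707 and 0.715 times in DMSO. PDS1 stood at 2.19 and 1.68 times ESP1 in IAA, against 2.28 and 2.31 times in DMSO, so that in IAA replicate 1 this ratio was close to the DMSO libraries. No test was made of these ratios.

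The members share little by position. None of the 42 lies within 20 kb of a chromosome end (the nearest, CDC26, is 42.8 kb from one), and none had decimals in its estimated counts, so no sharing of reads with other copies was seen. Of 5 members under 600 coding bases, 3 fell and 2 rose, where 27.1% of all tested genes of that length were lower and 28.8% higher. Of the 19 between 600 and 1500 bases, 10 fell and 2 rose, against 31.3% lower and 28.0% higher. Of the 15 between 1500 and 3000 bases, 5 fell and 4 rose, against 28.5% lower and 29.7% higher, so that falls did not stand out in number there. Of the 3 longer ones, 2 fell and 0 rose, against 31.5% lower and 24.7% higher. Once the trend of all coding genes with level and coding length was removed, the median of the members was -0.15, against -0.11 before. By this removal, 17 of the 42 members kept their sign but moved by at least the standard error of their log2 fold change. A further 3, which had not passed, changed sign. Among the members that passed, the values of CDC23 (0.091), SPC25 (0.13), APC4 (0.14), DAD1 (0.28) and ASK1 (-0.081) shrank by over 1.5 times, and those of MIF2 (-0.37) and BUB1 (-0.68) grew by over 1.5 times.

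Among 26 kinetochore genes outside the 42, 11 were lower and 2 higher, and their log2 fold changes had a median of -0.18. CBF1, a centromere-binding factor that also acts in transcription, fell 1.56-fold and CBF2, a DNA-binding subunit of the CBF3 complex, 1.45-fold. SGO1, the shugoshin that senses tension, fell 1.32-fold, and SPC105, which recruits the checkpoint, had 73.6 and 78.0 CPM in IAA and 80.7 and 79.9 CPM in DMSO and did not pass (log2 fold change -0.083, SE 0.0491). Of 6 other APC/C subunits, activators and inhibitors, 3 rose and 1 fell, and their median of 0.10 on the log2 scale was -0.0050 with library size scaling, which put all tested genes at -0.11. AMA1, the activator used in meiosis, rose 1.85-fold, to 8.13 and 7.03 CPM in IAA, against 4.55 and 3.63 CPM in DMSO (adjusted p = 0.00112). DOC1, a subunit that helps substrates bind, rose 1.28-fold, and the small subunit SWM1 fell by 0.27 on the log2 scale. CDC20, the activator that the checkpoint restrains, had 72.5 and 57.3 CPM in IAA and 53.7 and 51.2 CPM in DMSO (log2 fold change 0.31, SE 0.0991, adjusted p = 0.0266). Its IAA libraries differed from each other by more than IAA replicate 2 did from the DMSO libraries.

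**Figure D4:**
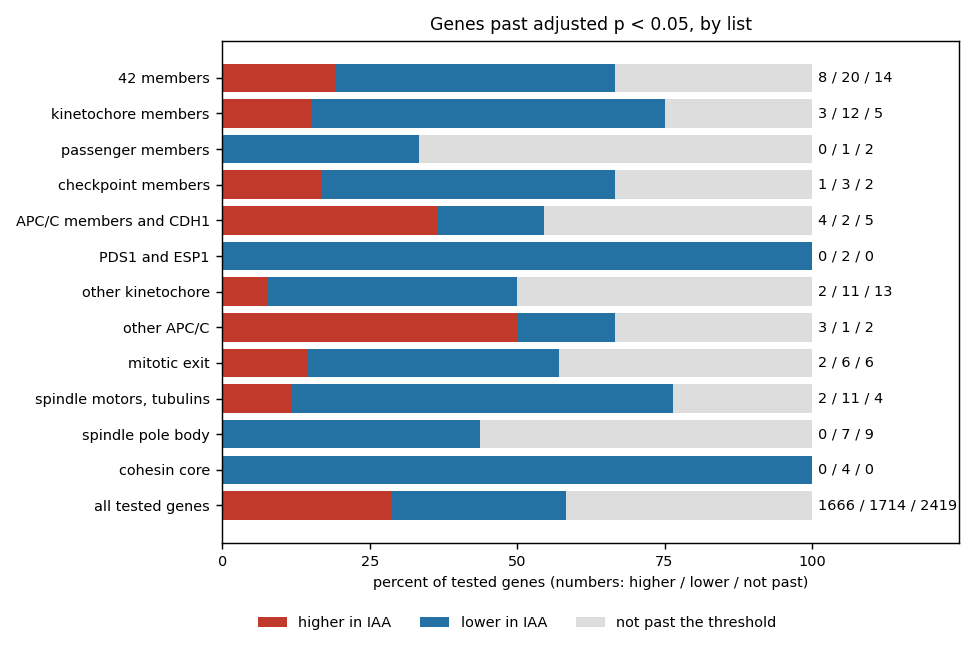
Percent of tested genes in each list that passed the threshold as higher (red) or lower (blue) in IAA or did not pass (grey), with the counts at the right. The kinetochore members (3 higher, 12 lower) and the APC/C members with CDH1 (4 higher, 2 lower) can be read against all tested genes (1666 higher, 1714 lower).

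Of 17 genes of spindle motors, microtubule-binding proteins and tubulins, 11 fell and 2 rose (median -0.27), with SLK19 1.45-fold, the tubulin-binding STU2 1.41-fold, the kinesin-5 gene CIN8 1.43-fold and the kinesin gene KAR3 1.46-fold lower. TUB1 and TUB2, for alpha- and beta-tubulin, were the 2 that rose (log2 fold changes 0.12 and 0.27). Of 16 spindle pole body genes, 7 fell and 0 rose (median -0.22), with SPC110 1.40-fold, KAR1 1.34-fold, the centrin gene CDC31 1.49-fold and SPC42 1.31-fold lower. All 4 core cohesin genes fell: MCD1, the subunit that separase cuts, 1.66-fold, SMC1 1.32-fold, IRR1 1.12-fold, and SMC3 by 0.27 on the log2 scale. Of 14 genes of mitotic exit and the spindle position checkpoint, 6 fell and 2 rose (median -0.048, and 0.027 with upper-quartile scaling, which put all tested genes at 0.072), with TEM1, the GTPase of the mitotic exit network, 1.38-fold, LTE1 1.33-fold, and CDC14, its phosphatase, 1.25-fold lower. NET1, the inhibitor of Cdc14, fell by 0.26 on the log2 scale, but its counts have decimals and may include shared reads. Counts of all these lists are set against 29.6% lower and 28.7% higher among all tested genes.

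Markers of cell-cycle phases are set against 29.6% lower and 28.7% higher among all tested genes. Not all lists moved in the direction of most members. Of 10 G1/S markers, 7 fell and 0 rose, and their CPM summed to between 1067 and 1105 in IAA and between 1286 and 1289 in DMSO. Of 10 M/G1 markers, 7 fell and 0 rose, with sums between 3405 and 3765 in IAA and between 4387 and 4480 in DMSO. CTS1 (mean 1172 CPM in IAA and 1458 CPM in DMSO) and EGT2 (651 and 946 CPM) weighed most in these sums. Of 13 G2/M markers of the CLB2 cluster, 5 fell (38.5%) and 1 rose (CDC20, which did not pass with library size scaling). Their sums lay between 1320 and 1481 in IAA and between 1499 and 1563 in DMSO. Their median log2 fold change of -0.087 was -0.010 with upper-quartile scaling, which put all tested genes at 0.072. Of 8 core histone genes, 5 rose and 2 fell, with sums between 1902 and 1932 in IAA and between 1584 and 1619 in DMSO. HHT1 and HHT2, whose estimated counts have decimals, were among those that rose. No marker of these lists was at 0 in any library. Fewer cells in a phase and less RNA per cell cannot be told apart in bulk RNA, and the part of cell-cycle phase in the changes of the members was not tested.

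Estimated counts per library summed to about 33589100 and 33625200 in IAA and 26046700 and 27609300 in DMSO, so IAA libraries were deeper. Members had between 109 and 4665 estimated counts in a library. As a check of the strain, LEU2, URA3 and MET17, which are deleted in BY4741, were at 0 in all 4 libraries. HIS3, also deleted in BY4741 and part of this check, was not at 0. It had 989 and 444 CPM in IAA and 777 and 362 CPM in DMSO, and the genotype names HIS3 with the OsTIR1 construct. The MATa genes STE2 (381 and 363 CPM in IAA, 395 and 361 CPM in DMSO) and STE6 were well expressed, and STE3 of MATalpha cells was at 4.68 and 5.13 CPM in IAA and 5.52 and 6.12 CPM in DMSO. The short pheromone genes MFA1 and MFA2 were under 1 CPM in every library, although MATa cells transcribe them. Of the MATa genes tested, BAR1 was called higher in IAA (1.40-fold), and so was MFA2, on these few reads. STE2 and STE6 did not pass.

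CDC26, PDS1, DAD2, DSN1, NDC80, BUB1, SPC24, ESP1, IPL1, CSE4, MAD1, OKP1 and DAM1 were called lower, and APC2 higher, in every alternative that tested them. A filter at a mean of 10 CPM left CDC26, DAD2, DAD1 and SPC25 untested.

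**Figure D5:**
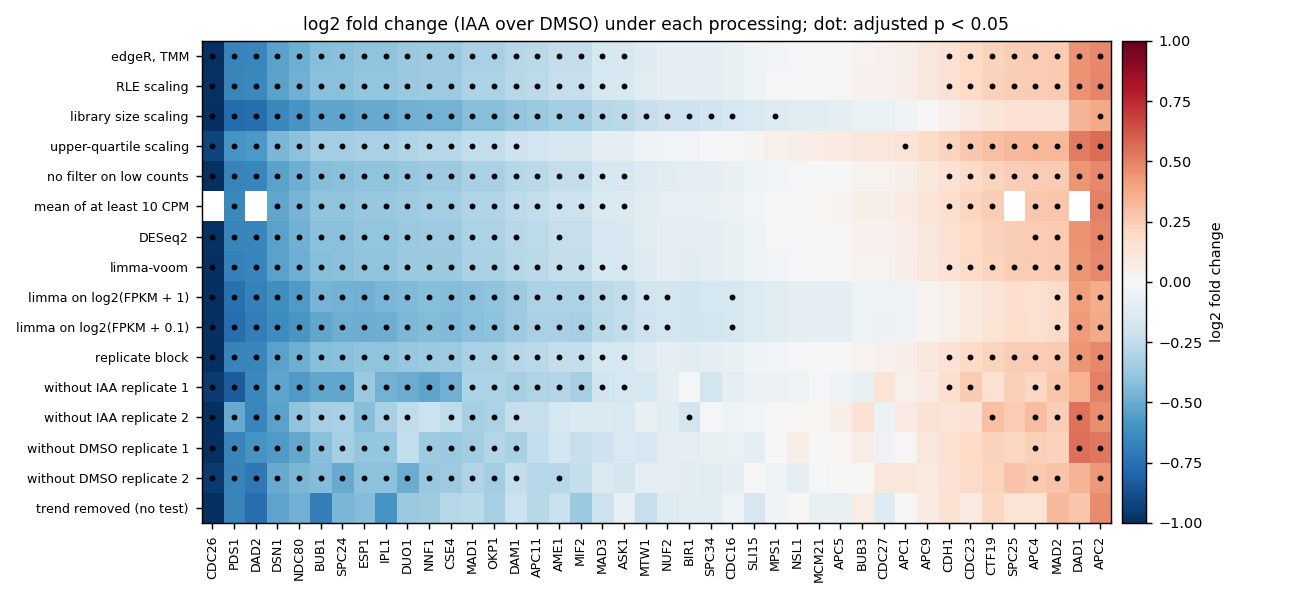
Log2 fold change, IAA over DMSO, of the 42 genes (columns, ordered by the edgeR value with TMM scaling) under each processing (rows), with a dot where the adjusted p was under 0.05 and white where the gene was not tested. The columns at the left stay blue with dots in every tested row, and among the red columns at the right only APC2 does so.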

How the data were processed

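Estimated counts and FPKM per gene were deposited by the authors for 2 IAA and 2 DMSO libraries. RNA was column-extracted with DNase treatment and made into libraries with a directional kit, per the labels' protocols. Use of strand information in the counting is not stated in the labels or headers. Per the submitters' processing notes, build R64, RSEM 1.3.3 and STAR 2.7.10a were used, with FastQC 0.11.9, SAMtools 1.10, DESeq2 and Trimmomatic also listed, in no stated order or role. The deposited expected counts need not be whole, since RSEM divides reads that match several loci, and were rounded. The FPKM deposited by the authors are scaled by library total and by a length shorter than the annotated one, which inflates the error of short genes.

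Names, positions and sequences came from RefSeq R64. Tests used R 4.3.3 and edgeR 4.0.16 (filterByExpr, TMM, glmQLFit, glmQLFTest, no covariate; threshold 0.05) on the whole table, of which 5799 genes were tested. The standard error is the log2 fold change divided by the square root of F. On simulated counts the test recovered the larger changes put in and a part of the smallest. The simulation changed few genes and capped the spread between replicates, so it does not show how the test did on the real libraries. Alternatives were other scalings and filters, DESeq2 1.42.0, limma 3.58.1 (voom, and log2(FPKM + 1) and log2(FPKM + 0.1)), each library left out, the replicate number as a block, an adjusted p of 0.01 and removal of a trend with level and coding length. Where a library was left out, the remaining library of its group was taken to vary as the other group did.

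The members and gene lists were chosen with earlier results of these data known. Members with a fold of at least 1.2 past the threshold, and 10 fixed ones (PDS1, ESP1, CSE4, NDC80, IPL1, MAD2, CDC16, CDC23, CDC27, CDH1), are given in every library. In other lists, except those of phase markers and of mating type and strain markers, up to 4 genes with the lowest adjusted p are named, with CDC20 and SPC105. Other genes named (HHT1, HHT2, CTS1, EGT2, IRC15, TUB1, TUB2) were chosen after their values were seen. A further motif and the promoter sequence of one member are not reported here. P-values set the difference between IAA and DMSO against the spread within groups of 2 libraries, estimated with information shared across genes. Over all genes, counts differed more between the IAA libraries than between the DMSO libraries (chi-square per degree of freedom 19.5 and 6.40). The edgeR test took a shared spread for both groups.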

Additional observations from a re-analysis of the deposited data

How the results depend on the processing

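The 42 genes gave 8 higher and 20 lower calls with edgeR and TMM scaling. The number higher was 1 with library size scaling, and 3 with DESeq2, with limma on log2(FPKM + 1), with limma on log2(FPKM + 0.1) and at an adjusted p under 0.01, where the number lower was 13. Leaving out 1 library gave between 3 and 5 higher and between 14 and 20 lower. Their median log2 fold change of -0.11 was -0.22 with library size scaling, -0.039 with upper-quartile scaling, -0.095 with a mean of at least 10 CPM, -0.20 with limma on log2(FPKM + 1), -0.21 with limma on log2(FPKM + 0.1) and -0.15 with the trend removed, and lay between -0.18 and -0.11 with 1 library left out. Over all genes, 1666 higher and 1714 lower calls became 1131 and 2501 with library size scaling, and 2180 and 1236 with upper-quartile scaling. RLE scaling, limma-voom and no filter on low counts left every call of the members as it was.

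Sign changes were confined to members that did not pass. With library size scaling BUB3 was at -0.068, APC1 at -0.042, APC5 at -0.10 and CDC27 at -0.064. With limma on log2(FPKM + 1) they were at -0.051, -0.036, -0.086 and -0.054, and on log2(FPKM + 0.1) at -0.052, -0.038, -0.089 and -0.058. With upper-quartile scaling MCM21 was at 0.073, NSL1 at 0.056, SLI15 at 0.031, MPS1 at 0.051 and CDC16 at 0.00088. MCM21 was at 0.0013 with RLE scaling and with DESeq2, and at 0.017 with a mean of at least 10 CPM, where NSL1 was at 0.00024. With the trend removed NSL1 was at 0.0081, APC5 at -0.072 and CDC27 at -0.13. Leaving out 1 library put BUB3 between -0.074 and 0.15, APC5 between -0.038 and 0.058, MCM21 between -0.016 and 0.016, NSL1 between -0.095 and 0.056, MPS1 between -0.055 and 0.012 and CDC27 between -0.058 and 0.14. The cause was not tested.

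With the replicate block, all genes gave 1832 higher and 1876 lower calls and the members 8 and 20, each on the same side as without it. The labels give only shared replicate numbers, and deviations of same-numbered libraries correlated at r = 0.31 across genes, which are not independent. CDC26, DAD1 and DAD2, all under 10 CPM, rest on the fewest counts, and precision for them is limited by depth.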

Other observations

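HIS3, the locus named in the OsTIR1 genotype, was at 989 and 444 CPM in IAA replicates 1 and 2 and at 777 and 362 CPM in DMSO replicates 1 and 2. The replicate 1 libraries exceeded the replicate 2 libraries in both treatments, and IAA and DMSO overlapped (log2 fold change 0.33, SE 0.387, edgeR adjusted p = 0.487).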
